A study of Homo sapiens with 6 samples.

Results

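Fc receptors, Siglecs and scavenger receptors are proteins through which a monocyte binds antibodies, sialic acids and modified lipids. The values of 10 such genes were followed in THP1 cells exposed to Withaferin A (WFA). The genes were chosen by name, as receptors and receptor-associated proteins of monocytes, with earlier results of these data known. They were FCGR1A, FCGR2A, FCER1G, CD33, CD68, CD36, SCARB1, MSR1, CD163 and OLR1. All 10 were among the 26485 gene rows of the count table, and 9 of them were among the 12854 genes with enough reads to be tested, OLR1 being the exception.

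THP1 is an established human line derived from acute monocytic leukemia, and it was grown in RPMI medium with fetal bovine serum. The study used RNA-seq to ask how gene expression changes after a short exposure to WFA, a steroidal lactone from a plant, with loss of the MYB transcription factor as its main interest. In the first group, cells received the solvent DMSO for 6 h (n = 3 libraries). In the second, they received WFA for the same 6 h (n = 3 libraries), at a dose that the sample labels give as 1 mM and the study's methods as 1 μM. Neither group carried a genetic change beyond those of the line itself, so the values describe a leukemic line and not blood monocytes.

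Fc gamma receptors bind the constant part of IgG. FCGR1A, the high-affinity receptor, has no signaling motif of its own and relies on the adaptor FCER1G, the common gamma chain, whereas FCGR2A carries an activation motif in its own tail. Both routes recruit the kinase SYK and drive phagocytosis of antibody-coated particles. Scavenger receptors take up oxidized or acetylated lipoproteins, apoptotic cells and other ligands, and CD33 is an inhibitory sialic acid-binding lectin that is also a surface antigen targeted in acute myeloid leukemia.

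The libraries held 11006035 to 13872810 counted reads, and values are given as reads of a gene per 1000000 counted reads (CPM) after scaling by the trimmed mean of M-values (TMM). All 11 monocyte and myeloid marker genes were above 3 counts in at least 1 library, and their summed level was 3131 to 4008 CPM with DMSO and 2814 to 4001 CPM with WFA, so the sums overlapped. LYZ alone gave 1823 ± 278 CPM of it with DMSO (SD, n = 3). Of the 11 markers, 4 were called lower with WFA and none higher: CD14 (log2 fold change -1.22), CEBPA (-0.58), CSF1R (-0.40) and SPI1 (-0.34, with overlapping groups), at edgeR adjusted p-values of 0.00165, 7.54e-05, 0.00238 and 0.0461. Over all tested genes, 24.7% were called lower and 25.8% higher at an edgeR adjusted p under 0.05. Markers of erythroid cells summed to at most 0.0817 CPM, and those of T, B, NK, megakaryocytic and epithelial cells to at most 5.72 CPM, with overlapping groups in each. The fibroblast list summed to 0.211 to 0.917 CPM with DMSO and 8.74 to 12.7 CPM with WFA through COL1A1 (0.453 ± 0.333 and 9.95 ± 2.27 CPM, SD, n = 3), while its other genes were at 3 counts or fewer in every library and COL1A2 was at 0 in all. The part of the monocyte and fibroblast markers in the receptor values was not tested. In bulk RNA, fewer cells of a type and less RNA per cell cannot be told apart.

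After 6 h of WFA, 3 of the 9 tested receptor genes were higher (FCGR2A, CD68 and SCARB1), 3 were lower (CD36, CD33 and FCER1G), and 3 did not pass the test (FCGR1A, MSR1 and CD163). CD36 showed the largest difference, with 45.4% of the DMSO level left, and FCGR2A the largest increase, to 1.48 times the DMSO level. The test was edgeR's quasi-likelihood test, called at a Benjamini-Hochberg adjusted p under 0.05 over all 12854 genes. By the same rule 25.8% of all tested genes were higher and 24.7% lower, against 33.3% of the receptor genes in each direction, so the counts lay near the background of a broad response. The median log2 fold change was 0.13 over the 9 genes and 0.02 over all tested genes.

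The same 6 genes were those whose WFA libraries all lay on one side of the DMSO libraries, 3 above and 3 below. Across all tested genes, 29.6% had every WFA library above and 28.5% every WFA library below. For a gene taken alone, 3 libraries against 3 give an exact two-sided permutation p of 0.1 at the smallest. Each of these 6 genes reached it, as any gene with separate groups does. This permutation moves libraries freely and does not keep same-numbered libraries together, so it does not reflect their pairing. The edgeR p-values come from a fit without a block and set the group difference against the spread between libraries of the same group. They do not measure how that difference varies between the 3 experiments on this line.

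**Figure D1:**
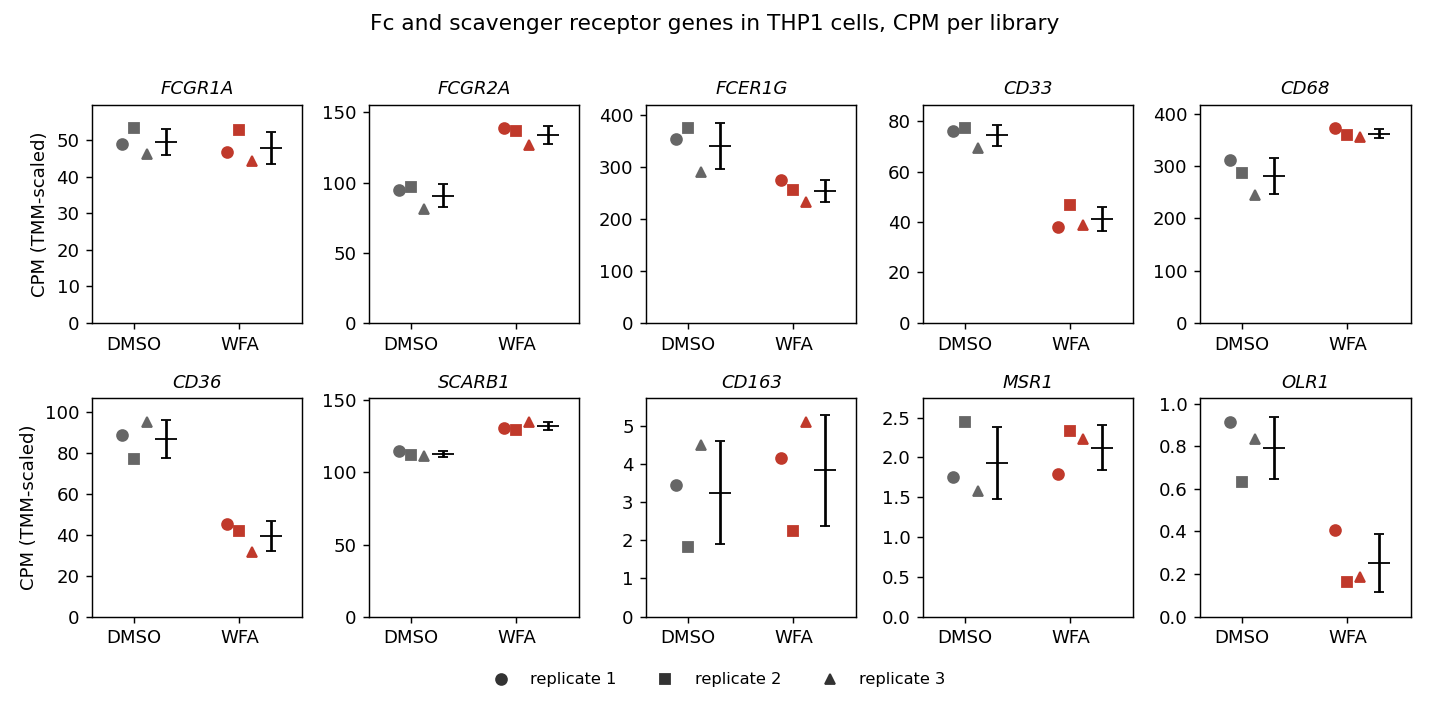
TMM-scaled CPM (vertical axes from 0, different in each panel) of the 10 receptor genes in the DMSO (grey) and WFA (red) libraries, with a symbol for each replicate and the mean ± SD as black bars. The groups are apart for FCGR2A, CD68 and SCARB1 (WFA above) and for FCER1G, CD33, CD36 and OLR1 (WFA below), and they overlap for FCGR1A, CD163 and MSR1.

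The Fc receptor genes did not move together. FCGR1A (chr1:149782671-149792518, plus strand) stood at 49.0, 53.4 and 46.4 CPM in DMSO replicates 1 to 3 and at 46.7, 52.9 and 44.4 CPM in the WFA replicates. Replicate 2 was the highest in both groups, and the groups overlapped. The log2 fold change was -0.05 (SE 0.10, 95% interval -0.26 to 0.17, edgeR adjusted p = 0.729), so a change beyond that interval was not seen.

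FCGR2A (chr1:161505430-161524013, plus strand), the low-affinity activating IgG receptor, was measured at 94.5, 96.6 and 81.2 CPM with DMSO and at 139, 137 and 127 CPM with WFA. Replicate 3 was the lowest of each group, yet its WFA library was above every DMSO library. The mean went from 90.7 ± 8.36 to 134 ± 6.47 CPM (SD, n = 3), a log2 fold change of 0.56 (SE 0.09, 95% interval 0.37 to 0.76, edgeR adjusted p = 0.00011). Within replicates the log2 differences were 0.55, 0.50 and 0.64.

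FCER1G (chr1:161215234-161220699, plus strand) also signals for the IgA receptor and other partners. Its levels were 354, 374 and 289 CPM with DMSO and 273, 256 and 232 CPM with WFA. All WFA libraries were below all DMSO libraries, the nearest pair being the WFA library of replicate 1 and the DMSO library of replicate 3. The mean fell from 339 ± 44.3 to 254 ± 20.9 CPM (SD, n = 3), with a log2 fold change of -0.42 (SE 0.11, 95% interval -0.64 to -0.19, edgeR adjusted p = 0.00389).

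Reads of FCGR1A and FCGR2A may be divided among near-identical copies. FCGR1B and FCGR1C are copies of FCGR1A, and their log2 fold changes were -0.27 (edgeR adjusted p = 0.166) and -0.46 (edgeR adjusted p = 0.0749). With the replicate number as a block FCGR1C was called lower (edgeR adjusted p = 0.0441) and FCGR1B was not (edgeR adjusted p = 0.0767). With the counts of all 3 genes summed, the log2 fold change was -0.12 (edgeR adjusted p = 0.345), still not called. FCGR2C shares most of its sequence with its neighbors, and FCGR2A summed with it gave 0.55 (edgeR adjusted p = 8.91e-05). FCGR2C had 7 to 36 reads a library against 974 to 1699 for FCGR2A, so this sum could hardly move the value. FCGR2B was not part of the sum. FCGR1A also overlaps 177 exon bases of HIST2H2BF on the opposite strand, which a library kit that does not mark strand cannot separate.

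CD33 (chr19:51225064-51243860, plus strand) fell. Its levels were 76.3, 77.3 and 69.5 CPM with DMSO and 38.0, 46.9 and 39.0 CPM with WFA, and the groups were far apart. The mean dropped from 74.4 ± 4.26 to 41.3 ± 4.87 CPM (SD, n = 3), or 55.5% of the DMSO mean, with a log2 fold change of -0.85 (SE 0.10, 95% interval -1.07 to -0.63, edgeR adjusted p = 6.99e-06). The log2 differences within replicates were -1.0, -0.72 and -0.83.

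CD68 (chr17:7579467-7582113, plus strand) encodes a heavily glycosylated protein of lysosomes and endosomes that is widely used as a macrophage marker. It was at 311, 287 and 245 CPM with DMSO and at 373, 359 and 356 CPM with WFA. The DMSO libraries spread more widely than the WFA libraries, and all of them were below. The mean rose from 281 ± 33.7 to 362 ± 9.19 CPM (SD, n = 3), a log2 fold change of 0.37 (SE 0.10, 95% interval 0.16 to 0.57, edgeR adjusted p = 0.00528).

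The promoters of FCGR1A, FCGR2A and CD33 share a run of letters, although these genes differed in their response (not called, higher and lower). Promoter windows from RefSeq (GRCh38.p14), from 250 bases before the start of a gene to 50 after it, were given for 7 of the 10 genes and not for MSR1, OLR1 and SCARB1. The longest run held by the windows of at least 3 of them was 14 bases, CCTTCCTCTTTTCT. It contains TTCCTC, the reverse complement of GAGGAA, the core of the sites bound by PU.1, a transcription factor of myeloid cells. The 30-base stretches are shown to let the run be compared, in the direction of transcription, with the 14 bases in capitals; in CD68, which lacks it, the capitals mark TTCCTC alone.
FCGR1A: ggcaatttCCTTCCTCTTTTCTaatttggc
FCGR2A: aaccatttCCTTCCTCTTTTCTaagcttgt
CD33: ctccactcCCTTCCTCTTTTCTgctcacac
CD68: tgagactttcatTTCCTCctttccaagaga

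These stretches lie on the plus strand at chr1:149782638-149782667 for FCGR1A, chr1:161505402-161505431 for FCGR2A, chr19:51225060-51225089 for CD33 and chr17:7579578-7579607 for CD68. RefSeq starts these genes at 149782694 (FCGR1A), 161505457 (FCGR2A), 51225080 (CD33) and 7579638 (CD68), downstream of the GENCODE starts given above, so the stretches of FCGR2A, CD33 and CD68 reach into the genes as GENCODE draws them. Counted from the RefSeq start as base 1, with the base before it as -1, the run spans -48 to -35 in FCGR1A, -47 to -34 in FCGR2A and -12 to 2 in CD33. In CD68, TTCCTC spans -48 to -43. FCGR1A and FCGR2A share a longer run of 20 bases around it.

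The 14-base run, searched on both strands, was in 4 of 35116 promoter windows (0.0114%), and the windows of these 3 receptor genes were among them. It was picked out because it is shared, so its rarity is a description only. GAGGAA on either strand was in 27.9% of windows and in those of 6 of the 7 receptor genes, FCER1G being without it. The 7 genes had 12 windows, several of them of CD36. The share over windows and the count over genes are therefore not directly comparable. Over all genes with GAGGAA in a window, 3272 were tested, of which 25.3% were higher and 26.6% lower with WFA. A match is a description of the letters and not of a bound site.

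Among the scavenger receptors, CD36 (chr7:80369575-80679277, plus strand), a class B receptor for oxidized LDL, long-chain fatty acids and thrombospondin, fell. It stood at 88.9, 77.1 and 95.4 CPM with DMSO and at 45.4, 41.9 and 31.5 CPM with WFA. Replicate 3 had both the highest DMSO value and the lowest WFA value. The mean fell from 87.1 ± 9.29 to 39.6 ± 7.26 CPM (SD, n = 3), a log2 fold change of -1.13 (SE 0.13, 95% interval -1.40 to -0.87, edgeR adjusted p = 3.09e-06). Within replicates the log2 differences were -0.96, -0.87 and -1.59.

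SCARB1 (chr12:124776856-124882668, minus strand), the other class B receptor of the set, takes up cholesterol from HDL. Its levels were 115, 112 and 111 CPM with DMSO and 131, 130 and 135 CPM with WFA, with little spread inside either group. The mean rose from 113 ± 1.96 to 132 ± 2.84 CPM (SD, n = 3), a log2 fold change of 0.22 (SE 0.08, 95% interval 0.06 to 0.39, edgeR adjusted p = 0.0267). The call was lost with scaling by total counts (log2 fold change 0.14, edgeR adjusted p = 0.159) and without a filter on low counts (edgeR adjusted p = 0.0755). It was also lost without DMSO replicate 1, 2 or 3 or without WFA replicate 3 (edgeR adjusted p = 0.0639, 0.0989, 0.0666 and 0.0603). The direction was the same in all of these fits.

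**Figure D2:**
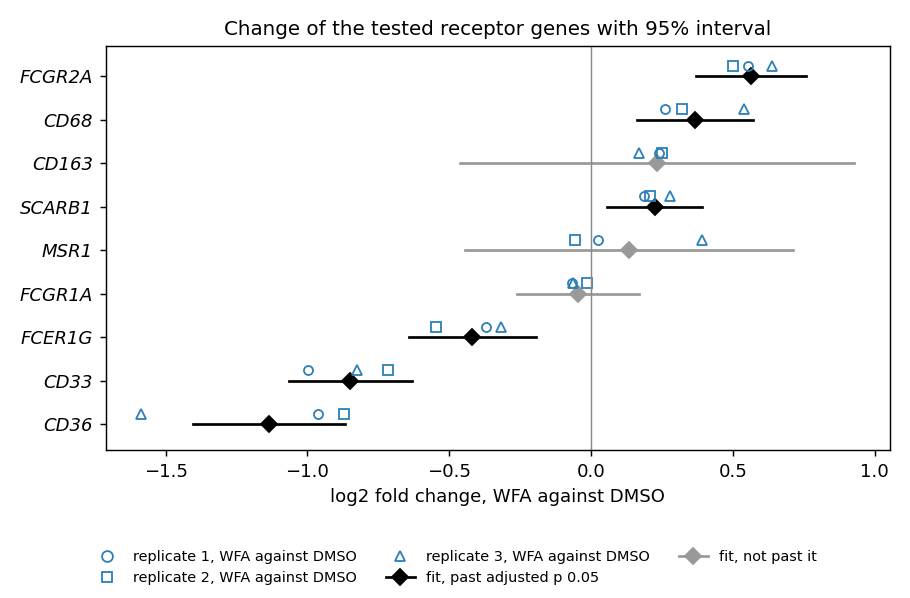
Log2 fold change of WFA against DMSO (horizontal axis) for the 9 tested receptor genes, ordered by size, as edgeR estimates (diamonds) with 95% intervals (lines), black where the adjusted p was under 0.05 and grey where it was not. Open blue symbols are the differences within each replicate, and for CD36 replicate 3 lies at -1.59, apart from -0.96 and -0.87.

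The remaining scavenger receptors were scarce in these cells. MSR1, the class A receptor for modified LDL, was at 1.76, 2.45 and 1.58 CPM with DMSO and 1.80, 2.34 and 2.23 CPM with WFA, from 19 to 31 reads a library. The groups overlapped, and the log2 fold change was 0.13 (SE 0.27, 95% interval -0.44 to 0.71, edgeR adjusted p = 0.704). At this depth a change of the size seen in SCARB1 was not detectable in MSR1.

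CD163 (chr12:7470813-7503893, minus strand), the receptor for hemoglobin bound to haptoglobin, was at 3.45, 1.82 and 4.50 CPM with DMSO and at 4.17, 2.26 and 5.12 CPM with WFA. Replicate 2 was the lowest and replicate 3 the highest in both groups, so the groups overlapped although WFA was above DMSO within each replicate. The log2 fold change was 0.23 (SE 0.33, 95% interval -0.46 to 0.93, edgeR adjusted p = 0.577), and the differences within replicates were 0.24, 0.25 and 0.17. Same-numbered libraries were taken to share an experiment. The mean level of CD163 over both treatments differed by 1.07 on the log2 scale between the highest and the lowest experiment. This range was wider than in 99.7% of tested genes, for which the median was 0.205. Of its exon bases, 38 overlap CD163L1 on the same strand.

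Among the Fc receptor genes, FCGR2B and FCGR2C also differed more between experiments than between treatments, and both were named after their values were seen. FCGR2B, the inhibitory IgG receptor, had 42, 10 and 123 reads with DMSO and 44, 14 and 197 with WFA. FCGR2C had 13, 11 and 36 reads with DMSO and 9, 7 and 30 with WFA. The ranges between experiments were 3.30 for FCGR2B and 1.49 for FCGR2C on the log2 scale, and neither gene was called (edgeR adjusted p = 0.452 and 0.743). FCGR2B was higher with WFA within each replicate, by 0.25, 0.34 and 0.81, and with the replicate number as a block its log2 fold change was 0.65 (SE 0.20, edgeR adjusted p = 0.0023), which passes the threshold. FCGR2C stayed uncalled with the block (edgeR adjusted p = 0.517), and reads of these near-identical genes may be divided between them.

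**Figure D3:**
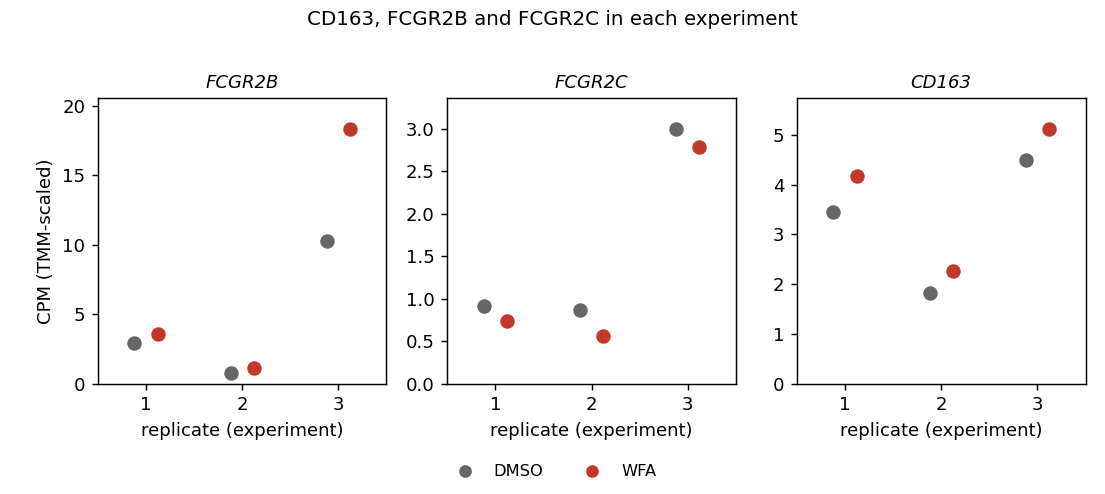
TMM-scaled CPM (vertical axes from 0, different in each panel) of FCGR2B, FCGR2C and CD163, with DMSO in grey and WFA in red. The horizontal axis gives the experiment, taken from the replicate number. In all 3 genes replicate 2 is the lowest and replicate 3 the highest in both groups.

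OLR1 (chr12:10158301-10172138, minus strand), a lectin-like receptor for oxidized LDL, had 13, 8 and 10 reads with DMSO and 5, 2 and 2 with WFA and did not pass the filter on low counts. In CPM this was 0.793 ± 0.146 against 0.252 ± 0.136 (SD, n = 3), and every WFA library was below every DMSO library. Tested without the filter, its log2 fold change was -1.62 (SE 0.58, 95% interval -2.76 to -0.48, edgeR adjusted p = 0.0166), which rests on 40 reads in all.

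Per kilobase of transcript, the 10 genes covered a wide span of levels. FCER1G led with 573 ± 75.0 CPM per kb in DMSO cells and 429 ± 35.4 in WFA cells, and its DMSO level was above that of 99.4% of tested genes. CD68 followed with 150 ± 17.9 and 193 ± 4.89, and FCGR2A with 64.9 ± 5.98 and 95.9 ± 4.62. In DMSO cells the order then ran from CD33 (51.5 ± 2.95) through SCARB1 (43.3 ± 0.75) and CD36 (36.8 ± 3.93) to FCGR1A (22.7 ± 1.62).

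MSR1, CD163 and OLR1 were far below, at 0.905 ± 0.214, 0.762 ± 0.317 and 0.322 ± 0.0591 CPM per kb in DMSO cells (SD, n = 3). In WFA cells the order of these levels differed at 2 places. SCARB1 (50.6 ± 1.09) passed CD33 (28.6 ± 3.37), and FCGR1A (22.0 ± 2.02) passed CD36 (16.7 ± 3.07). MSR1 and CD163 were the only neighbors whose libraries overlapped, in both groups.

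Ratios of reads within a library need no scaling between libraries, and 4 pairs of related genes were compared in this way, picked after the fold changes were seen. FCGR1A relies on FCER1G for signaling, and its reads per 100 of FCER1G were 13.8, 14.3 and 16.1 with DMSO and 17.1, 20.7 and 19.1 with WFA. For FCGR2A the reads per 100 of FCER1G were 26.7, 25.8 and 28.1 with DMSO and 50.7, 53.5 and 54.7 with WFA. The latter is a log2 difference of 0.98, against 0.36 for the former. Neither ratio overlapped between groups. For FCGR2A every WFA library was above and for FCER1G every WFA library below, so their ratio had to separate and adds no test. FCGR1A was not called (log2 fold change -0.05), so its ratio largely restates the fall of FCER1G (-0.42) and adds no test either.

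The class B scavenger receptors moved apart in the same way. CD36 reads per 100 of SCARB1 were 77.2, 68.6 and 85.6 with DMSO and 34.6, 32.3 and 23.3 with WFA, a log2 difference of -1.38. CD33 reads per 100 of CD68 went from 24.5, 26.9 and 28.4 to 10.2, 13.1 and 11, a log2 difference of -1.23. Leaving out each library in turn gave -1.49 to -1.20 for the first and -1.33 to -1.15 for the second. CD36 and CD33 had every WFA library below, SCARB1 and CD68 every WFA library above. These ratios therefore had to separate as well.

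**Figure D4:**
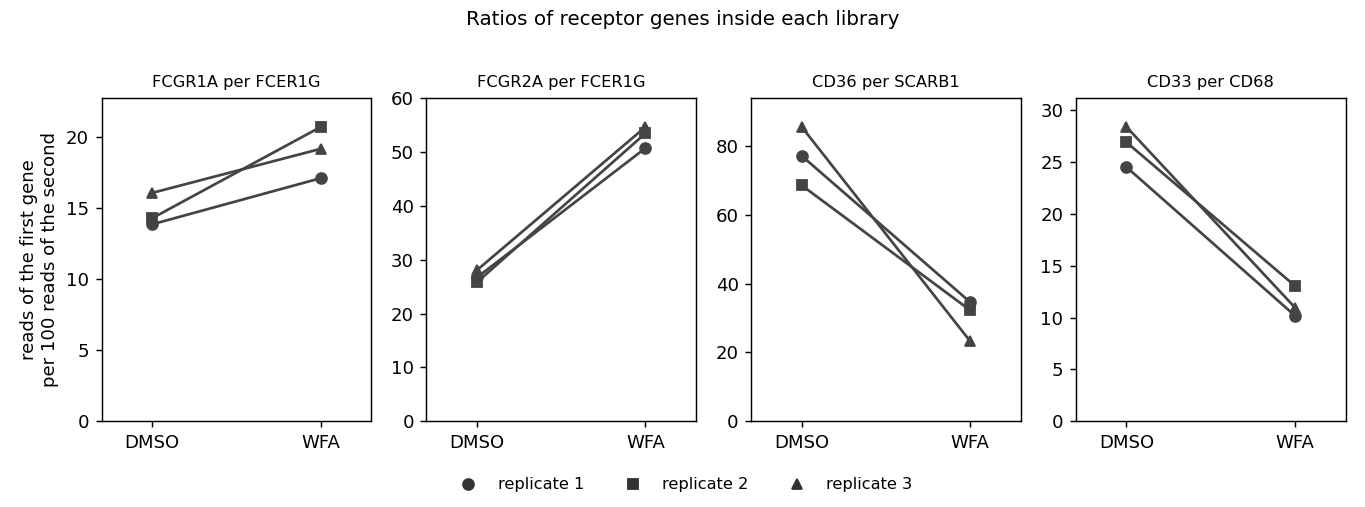
Reads of the first gene per 100 reads of the second in the same library (vertical axes from 0, different in each panel) for 4 pairs of receptor genes, with a line and a symbol for each replicate from DMSO to WFA. All 3 lines rise for both ratios to FCER1G and fall for CD36 to SCARB1 and CD33 to CD68.

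The wider Fc receptor family of 25 genes had 11 genes with enough reads, and 7 of the 25 were at 3 counts or fewer in every library. This list and those below were chosen with earlier results of these data known, so their shares are a description only. Of the 11, 2 rose (18.2%), 3 fell (27.3%) and 6 were not called, with a median log2 fold change of -0.24. Over all tested genes 25.8% were higher and 24.7% lower, with a median of 0.02, so these shares lay near the background. Besides FCGR2A, FCER1G and the genes above, TRIM21, a cytosolic antibody receptor, fell by 0.43 on the log2 scale (SE 0.10, edgeR adjusted p = 0.00297). FCAMR, a receptor for IgA and IgM, fell from 2.38 ± 0.405 to 0.486 ± 0.449 CPM (SD, n = 3, log2 fold change -2.21, edgeR adjusted p = 0.00129). FCGRT, the neonatal receptor that recycles IgG, was at 155 ± 24.9 CPM with DMSO and 188 ± 4.28 with WFA (log2 fold change 0.28, edgeR adjusted p = 0.0417), a call lost with total counts and without DMSO replicate 2 or 3 or any WFA replicate (edgeR adjusted p from 0.0565 to 0.195).

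A list of 35 genes for Fc receptor signaling also held other surface receptors, SIRPA and CLEC7A among them. Of the 35, 32 were tested, and 20 fell (62.5%), 4 rose (12.5%) and 8 were not called, with a median of -0.34. SIRPA and CLEC7A count among those that fell, so the shares are those of the list and not of downstream signaling genes alone. Over all tested genes the shares were 24.7% lower and 25.8% higher. SYK, the kinase that both activating routes recruit, was among those that fell (-0.64 on the log2 scale, edgeR adjusted p = 4.57e-05), as was the SRC-family kinase LYN (-0.35, edgeR adjusted p = 0.00307). PIK3CB, a catalytic subunit of phosphoinositide 3-kinase, fell from 271 ± 30.5 to 103 ± 10.8 CPM. PRKCD, the delta form of protein kinase C, fell from 297 ± 23.0 to 161 ± 11 CPM. The adaptor GRB2 fell from 563 ± 16.2 to 317 ± 26.2 CPM, and INPP5D, the lipid phosphatase SHIP1 that restrains Fc signaling, from 297 ± 8.04 to 163 ± 33.9 CPM. The membrane adaptors LAT2 (252 ± 38.6 to 430 ± 23.2 CPM) and LAT (4.94 ± 0.566 to 8.77 ± 1.55 CPM) rose (SD, n = 3 throughout). The edgeR adjusted p of these 6 genes ran from 6.24e-08 for PIK3CB to 0.0018 for LAT.

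The Siglec family, to which CD33 belongs, had 11 of 15 genes tested. Of these, 7 fell (63.6%), none rose and 4 were not called, with a median log2 fold change of -0.95, against 24.7% lower and 25.8% higher over all tested genes. No Siglec was higher with edgeR at an unadjusted p under 0.05 either (0 genes), nor with DESeq2 (0 genes), while a fit without the filter on low counts called 1 gene higher. SIGLEC6 fell by 1.41 on the log2 scale (SE 0.25, edgeR adjusted p = 0.000267), SIGLEC12 by 1.07 (SE 0.21, edgeR adjusted p = 0.000519), SIGLEC5 by 1.1 (SE 0.22, edgeR adjusted p = 0.000691) and SIGLEC14 by 0.82 (SE 0.17, edgeR adjusted p = 0.000764). SIGLEC5 and SIGLEC14 are nearly identical over part of their length, and the division of reads between them is uncertain. All of these were scarcer than CD33, at 5.21 to 11.2 CPM with DMSO against 74.4 CPM.

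The scavenger receptor family had 18 of 28 genes tested, with 3 higher (16.7%), 4 lower (22.2%), 11 not called and a median of -0.20, both shares below those over all tested genes (25.8% and 24.7%). Besides CD68 and SCARB1, SCARB2, a lysosomal membrane protein related to CD36, rose from 153 ± 13.8 to 250 ± 17.1 CPM (log2 fold change 0.71, edgeR adjusted p = 1.66e-05). AXL, a receptor for apoptotic cells, fell from 44.2 ± 9.50 to 24.6 ± 6.10 CPM (log2 fold change -0.85, edgeR adjusted p = 0.000691). CD14, a co-receptor for lipopolysaccharide and a marker of blood monocytes, was scarce and fell from 5.72 ± 1.89 to 2.45 ± 0.466 CPM (log2 fold change -1.22, edgeR adjusted p = 0.00165). CLEC7A, the beta-glucan receptor that stands on this list and the signaling list, was at 3.30 ± 1.29 and 1.67 ± 1.03 CPM with overlapping groups (edgeR adjusted p = 0.047), and the call was lost in 6 of 13 alternatives.

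Genes of lipid loading and efflux, the fate of what CD36 and SCARB1 carry, were tested for 28 of 29, and 13 rose (46.4%), 7 fell (25%) and 8 were not called, with a median of 0.26. The share that fell was near the 24.7% of all tested genes, and 25.8% of all tested genes rose. NPC1, which moves cholesterol out of lysosomes, rose from 41.6 ± 3.02 to 110 ± 15.2 CPM, and PLIN2, which coats lipid droplets, from 105 ± 9.94 to 198 ± 29.1 CPM. ACSL1, an acyl-CoA synthetase, rose from 129 ± 7.90 to 216 ± 9.79 CPM. RXRA, a nuclear receptor that pairs with PPARG, fell from 134 ± 9.71 to 89.5 ± 7.72 CPM, and MYLIP, a ubiquitin ligase, from 21.7 ± 1.57 to 12.9 ± 0.0966 CPM. The edgeR adjusted p of these 5 genes was at most 0.000122, that of MYLIP. PPARG, a regulator of CD36 transcription, was not called (log2 fold change 0.19, edgeR adjusted p = 0.201), nor was the liver X receptor NR1H3 (0.17, edgeR adjusted p = 0.43). NR1H2, also a liver X receptor, was called higher (0.67, edgeR adjusted p = 0.00021). PPARD (0.42, edgeR adjusted p = 0.00397) and PPARA (0.32, edgeR adjusted p = 0.0357) were called higher as well.

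**Figure D5:**
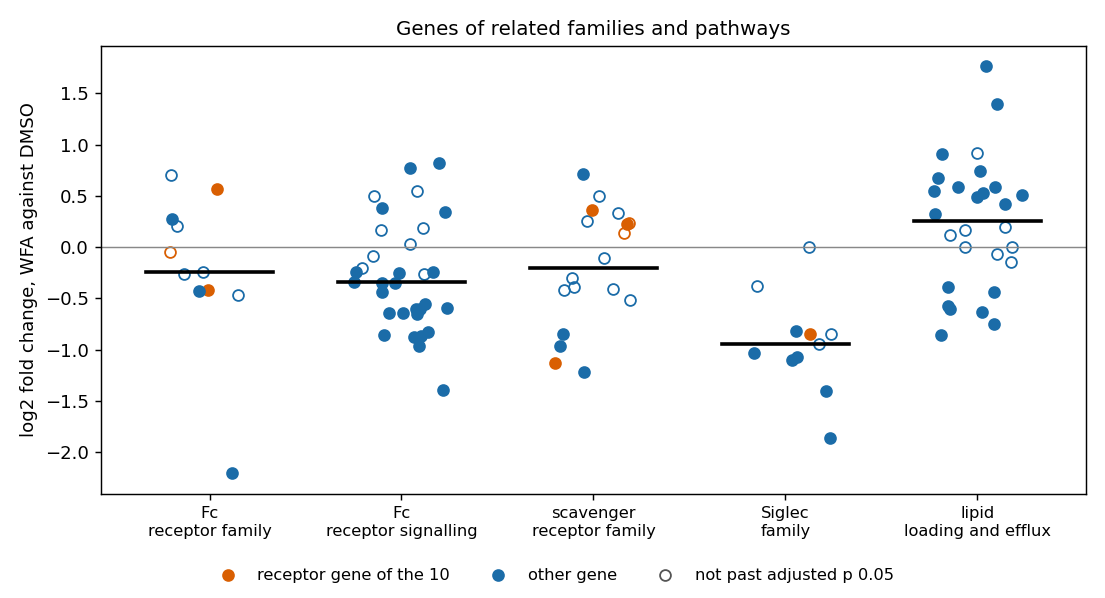
Log2 fold change of WFA against DMSO (vertical axis) for every tested gene of the 5 lists (horizontal axis), with the receptor genes followed here in orange, other genes in blue, filled symbols past an adjusted p of 0.05, open symbols not past it, and black bars at the medians. The medians lie at -0.34 for Fc receptor signaling, -0.95 for Siglecs and 0.26 for lipid loading and efflux.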

How the data were processed

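Gene expression in THP1 cells was measured by RNA-seq (TruSeq RNA v2, not strand-specific) in 3 DMSO and 3 WFA libraries. The authors deposited whole-number read counts per gene. The submitters' processing notes name bcl2fastq 2.19, Trimmomatic, Bowtie2, Picard, featureCounts, DESeq2 and hg38; settings and annotation are not given in the sources used here. Columns with the authors' scaled counts, fold changes and p-values were not used.

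Genes were filtered with filterByExpr (minimum count 10), scaled by TMM and tested with edgeR 4.0.16 (quasi-likelihood; R 4.3.3) without a block, with Benjamini-Hochberg adjustment. The script was tested on simulated data. CPM per kb used the longest principal transcript in GENCODE 29, which also gave gene positions (GRCh38). Values within replicates are differences of log2(CPM + 0.5). Counting depth was 11006035 to 13872810 reads a library; with 3 counts or fewer in every library a gene was taken as at the floor, which covers counting error only. Alternatives were DESeq2 1.42.0, other scalings and filters, a robust fit, the replicate block and leaving out each library; summed near-identical copies and ratios were added after the data were seen.

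Same-numbered DMSO and WFA libraries share a run of digits in the labels. The digits were read as a date and taken to mark a shared experiment, which the labels do not state. The paper states that the samples came from independent experiments. Deviations of same-numbered libraries from the group means correlated at 0.267, 0.407 and 0.291 over 11716 genes. For different numbers the correlations were -0.324 to 0.0229. No libraries were duplicates.

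The receptor genes and lists were chosen with earlier results of these data known. Genes named were all 10 receptors and, from each list, up to 4 others with the smallest p among those called and up to 2 called against the majority of the list. A gene that this rule names is not reported here. SYK, LYN, CEBPA, CSF1R, SPI1, LYZ, COL1A1, PPARG, NR1H3, FCGR1B, FCGR1C, FCGR2B and FCGR2C were named outside this rule, after their values were seen. SIRPA, PPARD, PPARA and NR1H2 were named in the same way.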

Additional observations from a re-analysis of the deposited data

How the results depend on the processing

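Of 126 values of the 9 tested receptor genes under the alternatives, 117 kept their direction and their side of the threshold, 6 lost the call (all SCARB1) and 3 changed sign. The sign changes were in genes that were not called: CD163 at -0.064 without DMSO replicate 2 and -0.015 without WFA replicate 3 (-0.064 to 0.52 when each library was left out), and FCGR1A at 0.0096 without WFA replicate 3 (-0.12 to 0.0096 when each library was left out). The cause was not tested. With the replicate block, 3 receptor genes were called higher and 3 lower and the median was 0.13, so the pairing changed no call among them. Among the other list genes the block added 10 calls and removed none, which gave 3 higher and 4 lower in the Fc receptor family, 6 and 22 in signaling, 4 and 4 among scavenger receptors, 0 and 9 among Siglecs, and 14 and 7 in lipid loading. The block added calls over all 12854 tested genes too, from 3311 to 3877 higher and from 3178 to 3708 lower. The added calls are therefore not particular to these lists. The median over the receptor genes, which moved both ways, was 0.032 without the filter (10 genes), -0.031 with a mean of at least 50 counts (7 genes) and -0.033 to 0.069 when each library was left out. In the Fc receptor family 1 gene was called higher with total counts, and 1 to 2 when each library was left out. With total counts, 2763 of all 12854 tested genes were called higher and 3875 lower. Among Siglecs, 1 was called higher without the filter and 4 were called lower with a mean of at least 50 counts, where fewer genes were tested. Over all genes, 3541 of 18328 were called higher and 3394 lower without the filter. With a mean of at least 50 counts these were 2882 and 2798 of 10654. Low counts limit MSR1, CD163 and OLR1.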
